A study of Mus musculus with 57 samples.

Results

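Sox9, Pou3f3, Mecom, Emx2, Irx3 and Tfap2b are transcription factor genes of the distal side of the developing nephron, and 2900092D14Rik is the transcript that lies beside Pou3f3. These 7 genes, taken by symbol from the 12087 genes of the table of expressed genes, are described here across 57 single cells. All 7 had a row. The cells came from renal vesicles of Tg(Crym-EGFP)82Gsat mice at postnatal day 4, on a mixed strain background, from 1 pool of 2 kidneys, and all of them carry the same transgene and form 1 group. In this line a bacterial artificial chromosome drives the fluorescent protein EGFP from the Crym gene, so the cells obtained depend on where that transgene is active. The labels give the sex as unknown, and as both for cell 38. Levels are given in RPKM, read numbers scaled by gene length and by the mapped reads of the cell, so that different genes can be set side by side. Below, a gene is detected where its RPKM is at least 1 and high where it is at least 20. On build mm9, as deposited, Sox9 lies on chromosome 11 (112643524 to 112649071), Mecom on chromosome 3 (29850218 to 30446930), Emx2 on chromosome 19 (59533180 to 59539847), Irx3 on chromosome 8 (94322424 to 94325273), Tfap2b on chromosome 1 (19198995 to 19228815) and Wt1 on chromosome 2 (104966686 to 105013771).

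The renal vesicle is the first epithelial stage of the nephron, formed when mesenchymal progenitors turn into a polarised ball of cells. Its distal side, next to the ureteric bud tip, goes on to form distal tubule and connecting segment, and its proximal side goes on to form podocytes and the capsule around them. Wt1, a zinc finger transcription factor, is required in podocytes and marks the proximal side. Sox9 is an HMG box factor of ureteric tips and distal nephron precursors, and Pou3f3 (also called Brn1) is a POU homeodomain factor needed for the loop of Henle and distal tubule. Emx2 is a homeodomain factor without which the kidney does not form, Mecom encodes the zinc finger factor Evi1, Irx3 is an Iroquois homeodomain factor of the intermediate nephron, and Tfap2b is an AP-2 factor of the distal tubule.

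Depths of 475000 to 2286000 reads per cell, with a median of 1470000, were estimated from the step size of the deposited values, and 2809 to 6502 genes were detected per cell, with a median of 4307. Of the genes that define the labelled structure, Pax8 was detected in 52 cells, Lhx1 in 45 and Jag1 in 56, whereas Pax2 and Wnt4 were detected in 19 each and were under RPKM 1 in most cells. In 7 cells Pax8 was below RPKM 5. The summed level of 12 macrophage genes was 8831 to 19600 in 5 of them (cells 1, 25, 35, 46 and 58) and 219 and 304 in the other two (cells 13 and 53), against at most 180.4 in the remaining 50 cells. In these 7 cells Emx2 was detected in cell 53 (RPKM 8.50) and 2900092D14Rik in cell 1 (RPKM 3.23), and the other 5 genes of the set were below RPKM 1. Crym itself was detected in 7 of the 57 cells.

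For 3 genes of the set bases upstream of the start could be read free of annotated exons, and those of Pou3f3 and Mecom are shown because all 6 cells with Mecom also had Pou3f3, as described below. The third was Tfap2b, found in 2 cells. The sequences are from RefSeq on build GRCm38.p6 and cover bases upstream of the start that no annotated exon on that strand holds. They are written 5′ to 3′ on the strand of the gene, with CCAAT, the letters of the CCAAT box searched on both strands, in capitals. Pou3f3 is read at chr1:42695518-42695767 on the plus strand and Mecom at chr3:30509823-30510009 on the minus strand.
Pou3f3: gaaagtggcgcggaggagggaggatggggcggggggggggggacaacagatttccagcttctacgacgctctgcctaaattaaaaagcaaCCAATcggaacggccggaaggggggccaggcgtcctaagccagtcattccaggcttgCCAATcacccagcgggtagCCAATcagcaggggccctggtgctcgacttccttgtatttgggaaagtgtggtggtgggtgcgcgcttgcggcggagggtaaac
Mecom: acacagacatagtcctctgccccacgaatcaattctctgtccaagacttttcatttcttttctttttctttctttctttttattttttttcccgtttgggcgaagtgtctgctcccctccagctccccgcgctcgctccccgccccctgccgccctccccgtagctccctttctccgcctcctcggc
The Pou3f3 window of 250 bases held 3 CCAAT matches, and 2.79% of 32851 windows of that length before RefSeq gene starts held 3 or more. The Mecom window shown is shorter, at 187 bases, and held none. It stops where an annotated exon begins, so the bases nearest the start were not searched. A TATAAA or TAATTA match was found in neither stretch shown. The windows of 2900092D14Rik, Emx2 and Irx3 held no such bases and are not shown.

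Sox9 was close to all-or-none in these cells. It was at 0 in 20 cells, above 0 but under RPKM 1 in 20, between 1 and 20 in 5 and at 20 or more in 12. The median over 57 cells was 0.181, the highest value was 355 in cell 52, and the mean was 29.8 ± 70.9 (SD, n = 57). No cell lay between RPKM 0.347 and 4.94. On either side of that gap the reads differed as plainly: the 20 cells under RPKM 1 held 1 or 2 reads each, 23 of the 9442 Sox9 reads (0.244%), and the lowest of the 17 detecting cells held 32. Here and below, a gap was counted for any gene only where at least 5 cells lay on each side, so gaps nearer either end are left out. The gap of Sox9 spanned 2.14 on the log2(RPKM + 1) scale, and 4.46% of the 8967 genes detected in at least 8 cells had one as wide. It was the widest gap with a pseudocount of 0.1 too, but with 10 the widest lay between 84.7 and 163. Within the 17 cells (29.8%, exact Clopper-Pearson interval 18.4 to 43.4) levels were graded, rising from 4.94 in cell 42 through 6.92 (cell 22), 8.88 (cell 9), 13.4 (cell 21), 14.7 (cell 23) and 21.7 (cell 32) to 33.1 in cell 33, and then from 51.9 (cell 36) to 355 in the other 10.

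Emx2, which acts early in nephric duct and metanephric epithelium, was the most widely detected of the set, in 23 cells (40.4%, interval 27.6 to 54.2). It was at 0 in 25 cells, with a median of 0.270, a highest value of 108 in cell 3 and a mean of 12.2 ± 23.7. Detecting cells fell into a lower and a higher band. Apart from cell 23 at RPKM 1.57, 10 cells lay between 5.78 and 10.28 and 12 lay between 27.3 and 108, with none in between. On the log2 scale the widest gap of Emx2 was that from 1.57 to 5.78, and 20.3% of genes had one as wide. The stretch between the lower and the higher band was narrower, and it was the widest only with a pseudocount of 10. How many genes have a stretch like it was not counted.

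Among the cells that detected it, Pou3f3 was spread over a wide range. It was at 0 in 37 cells, at a single read in 6, and detected in 14 (24.6%, interval 14.1 to 37.8), with a median of 0 and a mean of 12.8 ± 42.0. Its detecting cells held RPKM 1.41, 4.30, 5.01, 6.14, 7.88, 15.1, 20.8, 21.1, 49.7, 52.6, 66.5, 67.0, 138 and 271. The values ran from 8 reads in cell 33 to 425 in cell 52. Its widest gap, 1.20 units of log2(RPKM + 1), lay between 21.1 and 49.7, and 30.8% of genes had one as wide. With a pseudocount of 0.1 the widest gap lay instead at the border of detection, between RPKM 0.321 and 1.41, so the call of graded or all-or-none depends on the pseudocount for this gene.

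2900092D14Rik had the sharpest break of the set. It was at 0 in 27 cells, above 0 but under RPKM 1 in 15, between 1.31 and 5.51 in 5 and between 63.95 and 335 in 10, with a mean of 25.5 ± 66.8. It was detected in 15 cells (26.3%, interval 15.5 to 39.7). The empty stretch from 5.51 to 63.95 spanned 3.32 log2 units, and 0.569% of the 8967 genes had a gap as wide, where the median gap was 0.946.

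Mecom was rare and mostly high where present. It was at 0 in 43 cells and under RPKM 1 in 8. The 6 detecting cells (10.5%, interval 3.96 to 21.5) held 168 in cell 56, 161 in cell 8, 72.2 in cell 36, 70.3 in cell 40, 9.87 in cell 15 and 1.68 in cell 41. Its mean was 8.51 ± 32.9.

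Irx3 was low wherever it was found. It was at 0 in 41 cells and under RPKM 1 in 8, and the 8 detecting cells (14.0%, interval 6.26 to 25.8) held between 1.42 and 7.47, with the highest value in cell 23. All its signal came to 89 reads in 16 cells, so its levels cannot be ranked finely. Tfap2b was at 0 in 55 cells and had RPKM 12.7 in cell 40 and 3.75 in cell 36 (3.51%, interval 0.428 to 12.1), the fewest cells that the deposited table allows. The intervals cover the sampling of cells alone, and a gene under RPKM 1 in a cell cannot be taken as absent from it.

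In order of the median RPKM over detecting cells, Sox9 (74.1), 2900092D14Rik (72.4) and Mecom (71.2) stood together, followed by Emx2 (27.3), Pou3f3 (20.9), Tfap2b (8.25) and Irx3 (2.51). The first 3 did not differ beyond their spread, since each ranged over at least 71.8-fold among its detecting cells. Emx2 and Pou3f3, with ranges of 68.9-fold and 193-fold, overlapped almost wholly too. Irx3 and Tfap2b did not reach RPKM 20 in any cell. Wt1 was above 0 in all 57 cells, detected in 46 and high in 36, with a median of 52.7, a highest value of 1382 in cell 2 and a mean of 178 ± 272.

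**Figure D1:**
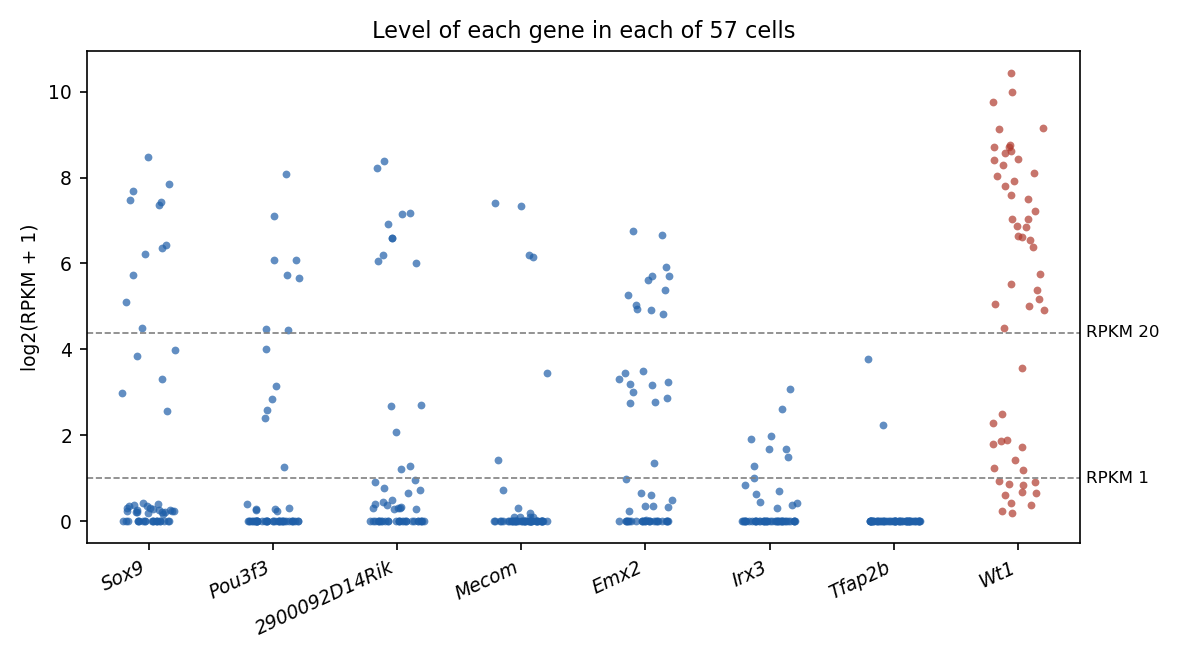
Level of the 7 genes (blue) and Wt1 (red) as log2(RPKM + 1), 1 point per cell, 57 cells per gene, with points spread sideways at random for legibility and dashed lines at RPKM 1 and 20. Sox9 is empty between RPKM 0.347 and 4.94 and 2900092D14Rik between 5.51 and 63.95, while detected Pou3f3 values spread from 1.41 to 271 and Irx3 reaches no more than 7.47.

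The genes of the set gathered in a minority of cells. No member was detected in 27 cells, 1 in 10 cells, 2 in 6, 3 in 3, 4 in 4, 5 in 4 and 6 in 3. At least 3 were detected in 14 cells, where the product of the single shares gives 9.23, and at least 5 in 7 cells, where it gives 0.218. With 2900092D14Rik left out, since it neighbours Pou3f3, at least 4 of the other 6 genes were detected in 7 cells against 0.708. The members were chosen with earlier results of these data known, so neither these counts nor the pair counts below are independent evidence of gathering. Cells 36 and 40 held every gene but Irx3, and cell 41 held every gene but Tfap2b. At the high level at least 1 member was found in 18 cells and all of Sox9, Pou3f3, 2900092D14Rik, Mecom and Emx2 together in cells 8 and 40.

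**Figure D2:**
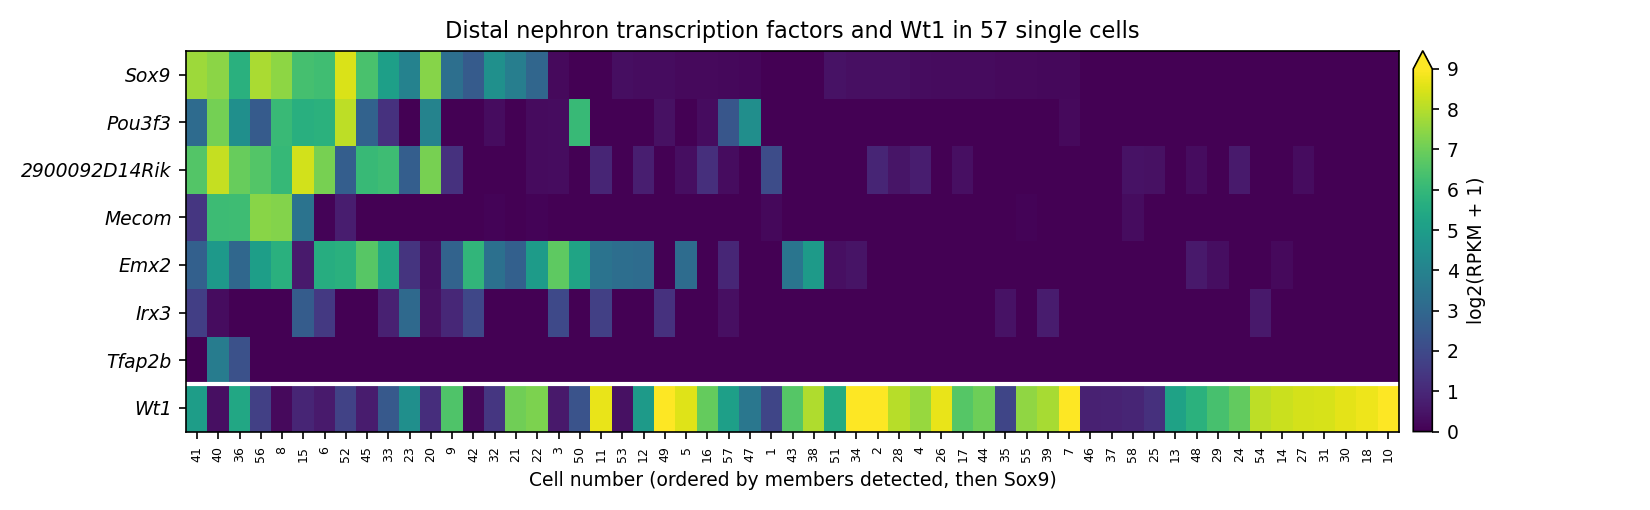
Level of the 7 genes and Wt1, as log2(RPKM + 1) on the colour scale, in each of 57 cells (columns, numbered as in the labels), ordered by the number of members detected and then by Sox9. The 14 cells at the left hold 3 or more members, and most bright Wt1 cells lie at the right, where no member is detected.

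Of the 21 pairs of genes, 20 were detected together in more cells than the product of their shares gives. As background, 61.6% of 10390 genes detected in at least 5 cells met Sox9 more often than that product, so the direction alone is common in this table. Sox9 and Pou3f3 were both detected in 11 cells against 4.18, Sox9 and 2900092D14Rik in 13 against 4.47, Sox9 and Emx2 in 15 against 6.86, and Pou3f3 and Emx2 in 10 against 5.65. All 6 Mecom cells had Sox9 (1.79 from the product), Pou3f3 (1.47) and 2900092D14Rik (1.58), and 5 of them had Emx2 (2.42). At the high level all 10 cells with 2900092D14Rik had Sox9, against 2.11 from the product. Irx3 met Sox9 in 5 cells against 2.39, and it met Tfap2b in none against 0.281, the single pair below its product.

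Correlations over the 57 cells did not rank the pairs as the joint counts did, and they are given as descriptions without a test. The cells share 1 pool and differ in depth. Spearman rho was 0.58 for Sox9 with Pou3f3 and 0.58 with 2900092D14Rik, 0.55 with Emx2, 0.51 with Mecom, 0.31 with Irx3 and 0.26 with Tfap2b. Among cells in which both genes were detected the ranks were only loosely related: rho was 0.30 for Sox9 with Pou3f3 (11 cells), 0.16 with 2900092D14Rik (13 cells) and 0.22 with Emx2 (15 cells), and 0.10 for Pou3f3 with 2900092D14Rik (11 cells). In each of these 4 pairs rho was lower among the jointly detecting cells than over all 57. The number of genes detected per cell had a rho of 0.260 with Sox9, 0.184 with Pou3f3 and 0.355 with Emx2. With that number regressed out of the ranks, rho was 0.56 for Sox9 with Pou3f3, 0.54 with 2900092D14Rik and 0.50 with both Emx2 and Mecom.

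**Figure D3:**
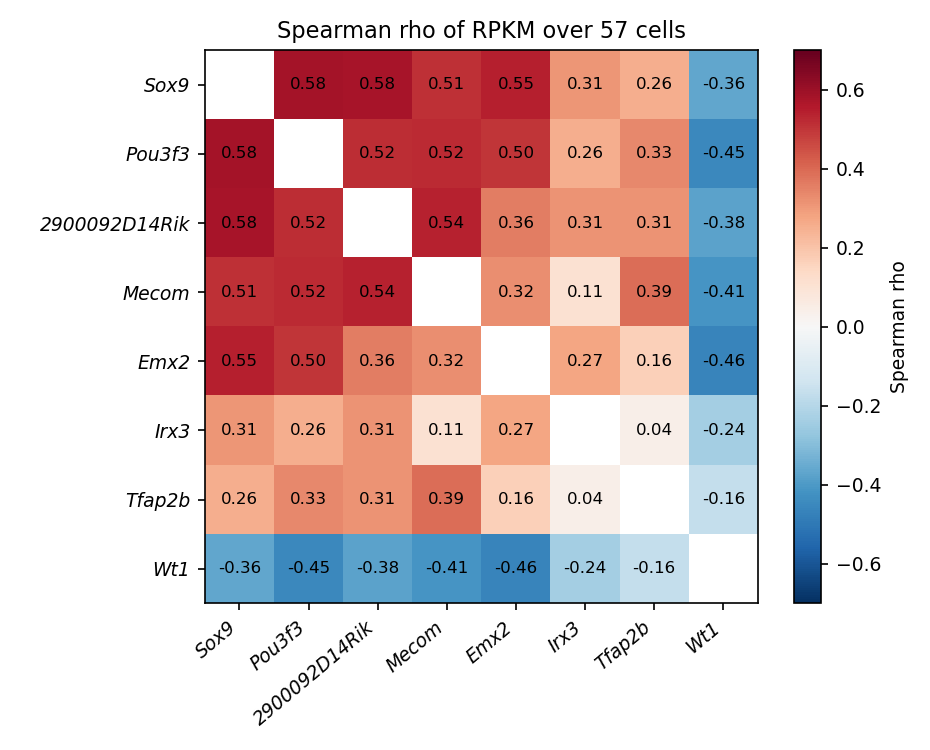
Spearman rho of RPKM over 57 cells for each pair of the 7 genes and Wt1, printed in each square and shown by colour from negative (blue) to positive (red). The highest values, 0.58, join Sox9 to Pou3f3 and to 2900092D14Rik, and the whole Wt1 row is negative.

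The members present changed along the range of Sox9. In the 6 cells with the lowest detected Sox9, RPKM 4.94 to 21.7, Pou3f3, Mecom and Tfap2b were under RPKM 1 in all 6, whereas Emx2 was detected in all 6 and reached 59.2 in cell 42. 2900092D14Rik was detected in 2 of them, at 1.44 in cell 9 and 5.44 in cell 23. In the other 11 cells, with Sox9 from 33.1 to 355, Pou3f3 and 2900092D14Rik were detected in all 11, Emx2 in 9 and Mecom in 6. Wt1 was high in 4 of the 6 (cells 9, 21, 22 and 23, RPKM 21.5 to 149) and in 2 of the 11 (cells 36 and 41). The cells were ordered by Sox9 after its values were seen, so these counts are a description of the 17 cells. The cut between RPKM 21.7 and 33.1 follows no level set beforehand, and it lies exactly where Pou3f3 begins to be detected. The sharpness of the change therefore depends on the cut. With the high level of RPKM 20 as the cut, Pou3f3 and 2900092D14Rik were each detected in 11 of the 12 high Sox9 cells.

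Emx2 was also found in cells without Sox9. Of its 23 cells, 8 had Sox9 under RPKM 1, and in 3 of those Emx2 was high, at 108 in cell 3, 37.5 in cell 50 and 29.0 in cell 38. Cell 50 also had Pou3f3 at 66.5, with Sox9 at 0. Cell 47 had Pou3f3 at 20.8 as its only member, with Sox9 at 0.123, a single read. Those are the only cells with high Pou3f3 and without detected Sox9. No cell had high 2900092D14Rik or detected Mecom without Sox9.

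High levels of the set and high Wt1 were mostly found in different cells. Any member was high in 18 cells and Wt1 in 36, and both were high in 4 cells, where the product of the shares gives 11.4. Member alone was high in 14 cells, Wt1 alone in 32, and neither in 7, of which 6 were among the cells with Pax8 below RPKM 5. By gene, Sox9 and Wt1 were both high in 2 cells against 7.58, 2900092D14Rik and Wt1 in 2 against 6.32, Emx2 and Wt1 in 2 against 7.58, Pou3f3 and Wt1 in 1 against 5.05 and Mecom and Wt1 in 1 against 2.53. At this level 42.2% of 7081 genes met Wt1 less often than the product. Of the 22 cells with Pax8 at 5 or more and no member detected, 21 had high Wt1, and the exception was cell 37 with Wt1 at 0.833.

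The separation grew weaker at a lower cut. Wt1 was above 0 in all 57 cells, so RPKM 1 does not part its presence from its absence. At RPKM 1 the 7 genes all met Wt1 in fewer cells than the product gives, but by little: 11 against 13.7 for Sox9, 9 against 11.3 for Pou3f3, 10 against 12.1 for 2900092D14Rik, 3 against 4.84 for Mecom, 16 against 18.6 for Emx2, 4 against 6.46 for Irx3 and 1 against 1.61 for Tfap2b. As background, 42.6% of the 10390 genes met Wt1 in fewer cells than that product. At RPKM 5 the counts were 6 against 10.4 for Sox9 and 3 against 7.79 for both Pou3f3 and 2900092D14Rik. Mecom gave 1 against 3.25, Emx2 10 against 14.3, Irx3 1 against 1.30 and Tfap2b 0 against 0.649. Of the 17 Sox9 cells, 64.7% (interval 38.3 to 85.8) also had Wt1 at RPKM 1 or more, and of the 12 high Sox9 cells 16.7% (interval 2.09 to 48.4) had high Wt1. Wt1 ranged from 0.167 in cell 8 to 40.84 in cell 36 among those 12, and in none of them did it reach its median over all cells, 52.7. Among the 11 cells that detected both Sox9 and Wt1, rho was -0.65. With Wt1 it was -0.50 for 2900092D14Rik (10 cells), -0.26 for Emx2 (16 cells) and -0.12 for Pou3f3 (9 cells), each among jointly detecting cells.

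The 4 cells with both a high member and high Wt1 were unlike each other. Cell 36 had Sox9 at 51.9, Pou3f3 at 21.1, 2900092D14Rik at 120 and Mecom at 72.2 beside Wt1 at 40.84. Cell 41 had Sox9 at 205 and 2900092D14Rik at 96.3 beside Wt1 at 31.4. Cell 22 had Emx2 at 29.9 and Sox9 at 6.92 beside Wt1 at 149, and cell 38 had Emx2 at 29.0 as its only member beside Wt1 at 241. In cells 36 and 41 Sox9 and 2900092D14Rik were above Wt1 while Pou3f3 and Emx2 were below it, and in cells 22 and 38 every member was below Wt1. These 4 cells had 5419 to 6502 genes detected, a number that 4 other cells reached, and whether any of them held RNA of more than 1 cell was not tested.

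**Figure D4:**
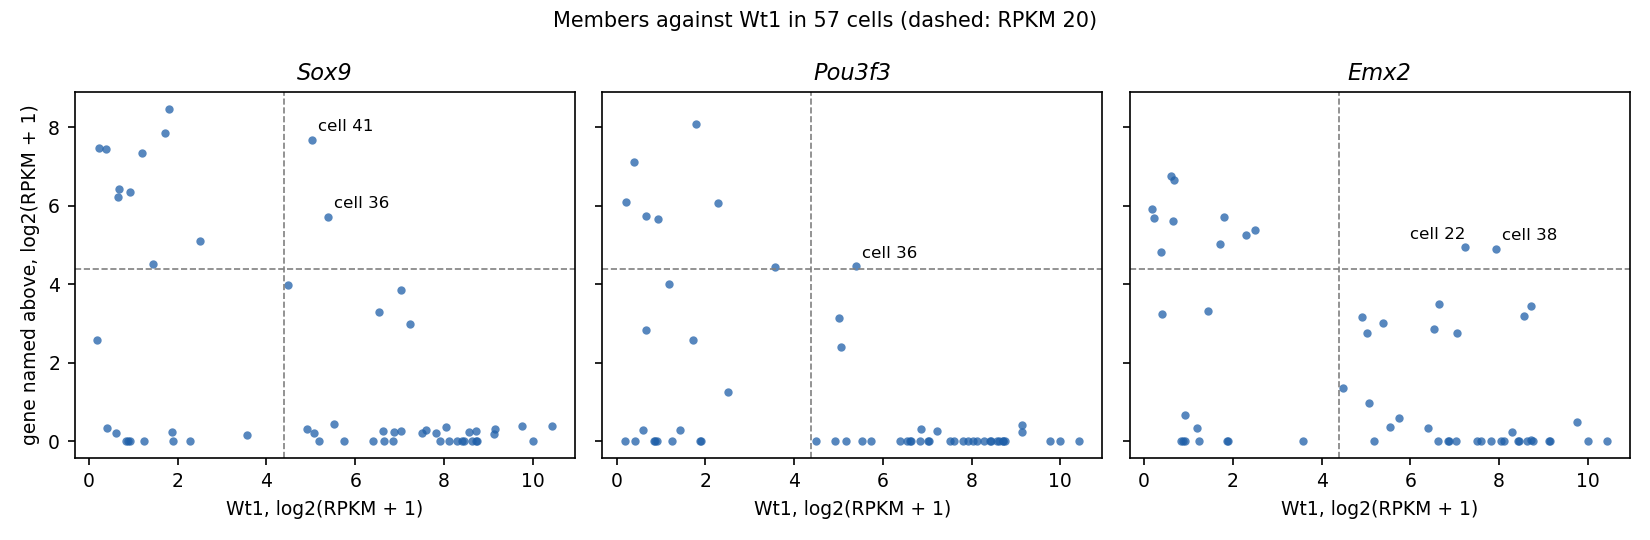
Sox9, Pou3f3 and Emx2 (vertical axes) against Wt1 (horizontal axis), both as log2(RPKM + 1), 1 point per cell, 57 cells per panel, with dashed lines at RPKM 20. The upper right part of each panel holds 2 cells for Sox9, 1 for Pou3f3 and 2 for Emx2, each labelled.

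Over 57 cells rho with Wt1 was negative for the whole set: -0.46 for Emx2, -0.45 for Pou3f3, -0.41 for Mecom, -0.38 for 2900092D14Rik, -0.36 for Sox9, -0.24 for Irx3 and -0.16 for Tfap2b. Wt1 was at most 35.3, in cell 13, in the 7 cells with Pax8 below RPKM 5, and without them rho was -0.62 for Emx2, -0.60 for Pou3f3, -0.52 for Sox9, -0.47 for 2900092D14Rik and -0.46 for Mecom. Among 10390 genes Wt1 had the second lowest rho with Emx2, the third lowest with Pou3f3, the 29th lowest with 2900092D14Rik and the 59th lowest with Sox9. Averaged over the 5 members detected in at least 8 cells, Wt1 had the lowest rho of 10385 genes, -0.38, followed by Pmp22, a myelin and epithelial membrane protein, at -0.365.

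Pou3f3 and 2900092D14Rik lie next to each other on chromosome 1 and are read in the same direction. The deposited rows place Pou3f3 at 42753991 to 42757054 and 2900092D14Rik at 42757181 to 42760021 on build mm9, with 126 bases between them. On GRCm38, GENCODE gives Pou3f3 as 1 exon from 42695768 to 42703176 whose stop codon ends at 42698639, and RefSeq's 2900092D14Rik, 42700336 to 42703176, lies inside that exon after the stop codon. By that annotation its reads would fall in the 3′ untranslated part of Pou3f3. The deposited values did not move as 1 unit, however. Both were detected in 11 cells against 3.68 from the product, with a rho of 0.52, yet the ratio of 2900092D14Rik to Pou3f3 in RPKM ran from 0 to 51.5 among the 14 Pou3f3 cells. In cell 52 Pou3f3 was at 271 and 2900092D14Rik at 5.51 (8 reads). In cells 50 and 47 Pou3f3 was at 66.5 and 20.8 and 2900092D14Rik at 0. In cell 33, in contrast, Pou3f3 was at 1.41 (8 reads) and 2900092D14Rik at 72.4 (382 reads), and the ratio was 19.0 in cell 56 and 12.2 in cell 41. Where the reads of the 2 rows come from along the exon was not tested, and libraries of this kind keep no strand.

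**Figure D5:**
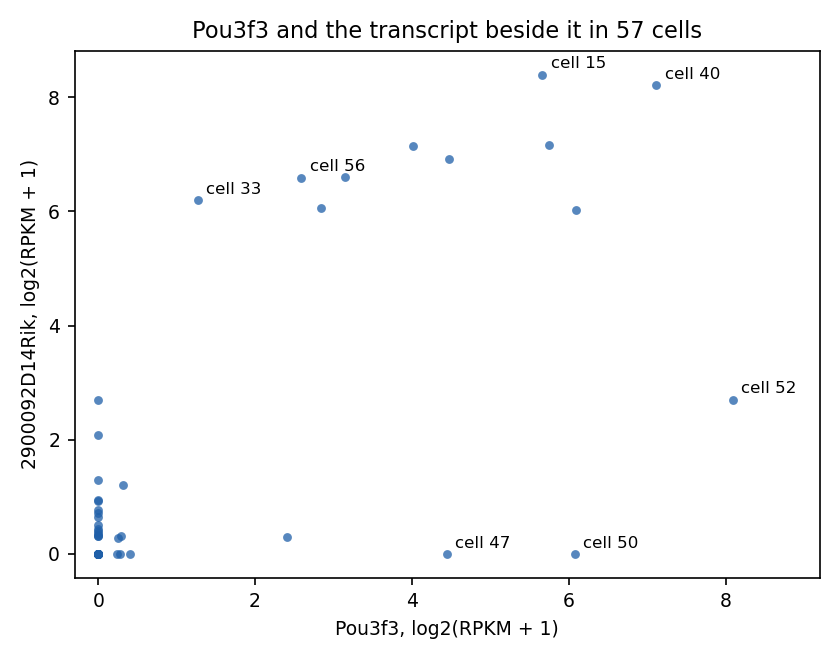
2900092D14Rik against Pou3f3, both as log2(RPKM + 1), 1 point per cell, 57 cells. Cells 47, 50 and 52 lie along the bottom, with high Pou3f3 and little or no 2900092D14Rik, and cells 33 and 56 lie to the upper left, with the opposite.

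Neighbours upstream behaved in part alike. 2610017I09Rik is a long noncoding transcript whose row lies 2320 bases before the Pou3f3 row in chromosome coordinates. It was detected in 8 cells, and all 8 had Sox9 (2.39 from the product), 7 had 2900092D14Rik (2.11) and 6 had Pou3f3 (1.96). Emx2os is the antisense transcript whose row lies 54 bases before the Emx2 row in chromosome coordinates. It was detected in 14 cells, 10 of them with Emx2 (5.65) and 11 with Sox9 (4.18). Without strand, reads of Emx2 and Emx2os that overlap could not be told apart. In cell 3, with the highest Emx2 (108), Emx2os was at 0, and in cell 36, with Emx2 at 7.04, Emx2os was at its highest, 99.0.

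The genes whose ranks followed the set most closely were named by rho alone. Of the 25 genes named as most like a member, 7 were also named with Pearson r of log2(RPKM + 1). Sox9 was followed by Papss2 (0.63), which makes the sulfate donor PAPS, the secreted Wnt inhibitor Dkk1 (0.60), the epithelial adhesion gene Epcam (0.59) and then Pou3f3 (0.58). Sox9 in turn ranked first for 2900092D14Rik, ahead of Mtap7 (0.56, detected in only 5 cells), the ETS factor Etv6 (0.555) and Greb1 (0.55). Pou3f3 was followed by Sim1 (0.68), a bHLH-PAS transcription factor, Hoxb6 (0.65), Enc1 (0.65) and Defb25 (0.61). Emx2 was followed by the protocadherin gene Pcdh7 (0.65), Tmem218 (0.65), Hoxa10 (0.63), Prss23 (0.60) and Greb1 (0.59), and Irx3 by Rfx3 (0.58), Smpd2 (0.54) and Ypel2 (0.53). The average over the 5 members was highest for Enc1 (0.53), Hoxb6 (0.50), Dkk1 (0.495), Papss2 (0.494) and Pcdh7 (0.494), and the Notch ligand gene Dll1 was ninth (0.47). At the other end stood Lilrb4, an immune receptor gene, for Sox9 (-0.51), Pmp22 for Pou3f3 (-0.55), Fgf15 for 2900092D14Rik (-0.52), Lrp1 for Emx2 (-0.53) and Tbc1d8 for Irx3 (-0.47).

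Other listed genes of the distal vesicle and distal nephron followed the same cells. Of 32 genes listed beside the set, 20 had values, and 16 of those were detected in at least 5 cells. All 16 had a rho above 0 with Sox9 and with Pou3f3, with medians of 0.385 and 0.47, where the medians over 10390 genes were 0.040 and 0.028. Of those 10390 genes, rho was above 0 for 6282 with Sox9 and for 5893 with Pou3f3. A positive rho was not particular to the distal list. Of 11 listed genes shared by the whole vesicle, Lhx1 and Ccnd1 of the 16 among them, 10 were above 0 with each, at lower medians of 0.192 and 0.179. Of the distal genes found in fewer than 5 cells, Spp1 was below 0 with Sox9 (-0.115), and Tfap2a, Prdm16 and Pou3f1 were above 0. The lists were chosen with earlier results of these data known, so the direction of the distal list is not independent evidence. The ligand gene Jag1, a Notch activator, was detected in 56 cells and Lhx1 in 45, so both reached far beyond the set, with rho of 0.42 and 0.39 with Sox9. Dll1 was detected in 18 cells, Dkk1 in 14 and Sim1 in 10. Among relatives of the set, Pou3f1 was detected in 4 cells, Irx5 in 6 and Tfap2a in 3, and the SoxC factors Sox4 and Sox11 in 26 and 52. The medians for 16 proximal vesicle and podocyte genes were -0.06 with Sox9 and -0.08 with Pou3f3, with 7 and 6 genes above 0. Wt1 was the lowest of them with both. Cited2 (0.44) and Dach1 (0.45), also on the proximal list, had a positive rho with Sox9.

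Ureteric bud genes moved with Sox9 too, and Sox9 is itself known from ureteric tips. Of 14 listed ureteric bud and collecting duct genes, 8 had values. Their summed level was RPKM 30.7 to 768 in the 12 high Sox9 cells and at most 337 in the other 45, and its rho with Sox9 was 0.52 over all 57. Etv5 was detected in all 12 and Hoxb7 in 10, against 12 and 14 of the other 45. Cdh16 was detected in 7 of the 12, Gfra1 and Etv4 in 6 each, Krt18 in 2, and Wnt11, a gene of the ureteric tip, in 1 at RPKM 7.94, with 0 or under 1 in the others. Tfcp2l1 was detected in 1 of the 12. The part that ureteric cells have in the values of the set was not tested. The summed macrophage level in the same 12 cells was between 0 and 180.4, with Csf1r and Aif1 at 0 in all of them. Ptprc was detected in 3 of the 12 (up to RPKM 6.61), C1qb in 2 (up to 129) and Fcer1g in 2 (up to 50). Cd14 (105), Tyrobp (1.34) and Cd68 (1.09) were detected in 1 each. C1qa, C1qc, Lyz2 and Cx3cr1 were under RPKM 1 in all 12.

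The study's own grouping of cells placed most of the set on the distal side. The authors' deposited table compares a proximal and a distal class over 787 genes in 28 of the cells, with a signed fold that is negative where the distal class was higher, and 44.6% of its genes were. Of the 7 genes, 6 had a row in the authors' deposited table and all 6 were negative. In the authors' deposited table the fold was -131 for Sox9, the second most negative of all, -39.2 for 2900092D14Rik (8th), -30.8 for Pou3f3 (10th), -14.2 for Emx2 (33rd), -9.98 for Mecom (60th) and -1.91 for Irx3 (339th), and Wt1 was at 96.1, the third most positive. At least 10-fold higher in the distal class were 7.5% of genes in the authors' deposited table, and 4 of the set. The study formed these classes and chose these genes on the same cells, so the folds are not independent evidence of a direction. The labels and headers do not name the cells of each class. Of the 12 high Sox9 cells 9 were among the 28, and cells 36, 41 and 45 were not, which leaves out both cells in which high Sox9 met high Wt1.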

How the data were processed

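RNA of 57 single cells was amplified with the SMARTer kit on a Fluidigm C1 chip and made into Nextera XT libraries, per the labels' protocols, without strand or molecular identifiers, so reads are not independent molecules. The authors deposited RPKM values, not logged, of 12087 genes with at least 2 cells above RPKM 3, per the file headers and the values. The authors also deposited RPKM of 787 genes in 28 cells beside a signed fold between 2 classes, treated here as a score. RPKM differed between the tables, which were never mixed. TopHat 1.4.1, DESeq and build mm9 are named, per the submitters' processing notes, without their roles.

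Reads were recovered from the RPKM steps (tolerance 0.05 of a read). For values under 50 reads all were whole for Sox9 (22 of 22), Pou3f3 (11 of 11), 2900092D14Rik (20 of 20), Mecom (9 of 9) and Irx3 (16 of 16), against 16 of 20 for Emx2 and 9 of 20 for Wt1. No reads were recovered for Tfap2b. This step was tested on simulated data. Cells are 1 group from 1 pool and not replicates, so no p-value was computed, and joint counts are set beside the product of the single shares. Shares carry exact Clopper-Pearson 95% intervals. Genes named for likeness are the 5 highest and 3 lowest by Spearman rho for each member detected in at least 8 cells, among genes detected in at least 5, of which a part is printed and 1 gene is not reported here. Alternatives were detection at any RPKM above 0, above 3, at 5 and at 20, Pearson r, other pseudocounts than 1, other filters, the smaller table, and leaving out 7 cells with Pax8 below RPKM 5. The members and gene lists were chosen with earlier results of these data known. Python 3.11.15, pandas 2.3.3, numpy 2.4.6, SciPy 1.17.1 and matplotlib 3.10.9 were used.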

Additional observations from a re-analysis of the deposited data

How the results depend on the processing

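The counts depended on the level asked for. With any RPKM above 0, Wt1 was present in all 57 cells, so 0 of 7 genes lay below the product of shares with it (7 at RPKM 1), and at least 3 members were found in 23 cells (14 at RPKM 1). At RPKM 20, which no cell reached for Irx3 or Tfap2b, at least 3 members were found in 9 cells, and the median gene was found in 8 cells (14 at RPKM 1). At that level 10 pairs exceeded the product (20 at RPKM 1). Those 10 were all the pairs without Irx3 or Tfap2b, and no pair with either gene could exceed its product of 0. Of the 25 genes named as most like a member, 7 were also named with Pearson r of log2(RPKM + 1). The correlation of Irx3 and Tfap2b, 0.039, turned to -0.041 with Pearson r and to -0.015 with the number of detected genes regressed out, and no other pair among the 7 genes and Wt1 changed sign in those 2 settings. Without the 7 cells with Pax8 below RPKM 5, 20 pairs again exceeded the product and 14 cells held at least 3 members. With a pseudocount of 0.1 the widest gap of Sox9 stayed between RPKM 0.347 and 4.94, and with 10 it lay between 84.7 and 163. No paired analysis was possible because the cells form 1 group. Depth limits the low values: the lowest detected Pou3f3, RPKM 1.41 in cell 33, rests on 8 reads.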
